A study of Mus musculus with 12 samples.

Results

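The genes described here belong to the tumour necrosis factor (TNF) and death receptor system, and 9 of them were chosen by name from the 54838 genes counted in mouse ileum. They were the ligand genes Tnf, Tnfsf10 (TRAIL) and Tnfsf13b (BAFF), the receptor genes Tnfrsf1a, Tnfrsf1b, Tnfrsf10b and Fas, the caspase-8 inhibitor gene Cflar, and Tnfaip8l3 of the TNFAIP8 family. All 9 passed the filter on low counts that left 15938 genes for testing. The choice used names and not values, but it was made with earlier results of these data known.

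The ileum is the last stretch of the small intestine, and RNA of whole ileum of C57BL/6J mice was sequenced. The mice drank normal water or water with 25 mM ZnSO4 for 7 days and were then injected with PBS or with 200 µg of dexamethasone (Dex), a synthetic glucocorticoid, in PBS. The ileum was taken 2 h after the injection, which gave 4 groups of 3 mice each: water + PBS, ZnSO4 + PBS, water + Dex and ZnSO4 + Dex. The labels give no TNF injection for any of these mice, so the values are those of unchallenged tissue. The study's methods give an age of 8 to 14 weeks for all mice, purchased C57BL/6J females kept free of specific pathogens, and zinc given as the heptahydrate salt. The label gives an injection volume of 200 ml, whereas the study's text gives it in microlitres.

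TNF is a cytokine that acts through TNFR1, encoded by Tnfrsf1a, and TNFR2, encoded by Tnfrsf1b. TNFR1 carries a death domain and can lead either to inflammatory gene expression through NF-kB or to cell death through caspase-8, while TNFR2 has no death domain. TRAIL and FAS ligand kill cells through death receptors of the same family, and cFLIP, the product of Cflar, restrains caspase-8 at these receptors. In the gut, TNF signalling is known to cause death of epithelial cells and barrier loss, and glucocorticoids are known to lower the expression of many inflammatory genes. Several genes of this system are also known interferon targets, Tnfsf10 and Tnfsf13b among them.

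The promoters of the genes on which the results turn are shown because the members moved in different ways under zinc and Dex. RefSeq (GRCm38.p6) held 9 promoter windows for 8 of the 9 genes, each read here as the 250 bases before the start on the strand of the gene; Tnfrsf10b has no entry. Both strands of each window were searched for 5 short motifs: ISRE, the interferon-stimulated response element, as GAAA, any 2 bases and GAAA, GAS, a STAT site, as TTCNNNGAA, a glucocorticoid response element (GRE) as ACANNNTGT, NF-kB as GGG, any 2 bases and TTTCC, and AP-1 as TGANTCA. Among the 32851 windows of the same length in the table, 2.98% held ISRE, 7.02% GAS, 5.84% GRE, 1.41% NF-kB and 6.75% AP-1. None of these letter strings was found in the windows of Tnfsf10, Tnf, Tnfaip8l3 and Cflar, nor in the first window of Tnfsf13b. The Tnfrsf1a window held 1 GAS match and no other. Capitals mark the matches below, which are ISRE 10 to 1 and GAS 181 to 173 bases before the start in Tnfrsf1b, ISRE 16 to 7 and AP-1 127 to 121 bases before the start in the second Tnfsf13b window, and GAS 93 to 85 and AP-1 211 to 205 bases before the start in Fas. No match overlapped a match of another motif in these windows. The starts are those of RefSeq and can lie inside or outside the annotated gene. The windows of Fas, Cflar and Tnfaip8l3 end short of the annotated gene. For these genes the bases just after the window were found in none of the annotated transcripts. The second Tnfsf13b window runs past the annotated gene start at chr8:10006467, and both its matches lie within the gene. The whole Tnfrsf1a window and the end of the Tnfsf10 window also lie within the annotated genes. The regions are chr3:27316827-27317076 on the plus strand for Tnfsf10, chr17:35202008-35202257 on the minus strand for Tnf, chr9:54068412-54068661 on the minus strand for Tnfaip8l3, chr4:145246871-145247120 on the minus strand for Tnfrsf1b, chr8:10006383-10006632 on the plus strand for Tnfsf13b and chr19:34290409-34290658 on the plus strand for Fas.
Tnfsf10: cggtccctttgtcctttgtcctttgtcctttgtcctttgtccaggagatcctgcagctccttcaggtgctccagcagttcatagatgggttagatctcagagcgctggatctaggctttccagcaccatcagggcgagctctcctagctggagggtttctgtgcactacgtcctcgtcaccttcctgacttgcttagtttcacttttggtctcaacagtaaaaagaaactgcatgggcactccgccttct
Tnf: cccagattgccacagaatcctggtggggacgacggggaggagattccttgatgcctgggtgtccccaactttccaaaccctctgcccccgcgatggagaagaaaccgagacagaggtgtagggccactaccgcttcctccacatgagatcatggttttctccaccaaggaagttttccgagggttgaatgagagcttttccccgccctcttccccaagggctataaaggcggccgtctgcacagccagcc
Tnfaip8l3: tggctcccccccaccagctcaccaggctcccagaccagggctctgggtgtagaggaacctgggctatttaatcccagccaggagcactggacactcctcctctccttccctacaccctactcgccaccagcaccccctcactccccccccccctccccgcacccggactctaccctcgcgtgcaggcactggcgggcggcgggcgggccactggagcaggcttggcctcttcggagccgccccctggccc
Tnfrsf1b: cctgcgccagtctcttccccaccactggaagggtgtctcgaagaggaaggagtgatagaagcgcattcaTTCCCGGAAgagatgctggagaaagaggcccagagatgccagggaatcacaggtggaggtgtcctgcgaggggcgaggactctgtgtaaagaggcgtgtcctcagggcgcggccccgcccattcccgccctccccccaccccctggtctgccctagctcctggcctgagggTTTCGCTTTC
Tnfsf13b: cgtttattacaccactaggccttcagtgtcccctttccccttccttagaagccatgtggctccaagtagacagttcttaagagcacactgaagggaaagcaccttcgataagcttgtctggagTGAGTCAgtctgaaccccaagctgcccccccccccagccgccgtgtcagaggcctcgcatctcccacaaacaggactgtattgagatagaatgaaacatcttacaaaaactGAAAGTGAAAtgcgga
Fas: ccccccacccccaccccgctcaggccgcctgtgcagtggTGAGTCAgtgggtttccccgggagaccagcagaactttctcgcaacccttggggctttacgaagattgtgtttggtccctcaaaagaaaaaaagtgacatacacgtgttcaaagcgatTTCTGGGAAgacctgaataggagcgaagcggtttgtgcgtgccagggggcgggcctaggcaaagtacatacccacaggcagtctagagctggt

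The 12 libraries held 10760132 to 11827487 counts assigned to genes. Enterocyte markers, among them the ileal bile acid genes Fabp6 and Slc10a2, summed to 13177 to 23014 CPM (gene counts scaled to a fixed library size) in every library, so the labelled tissue carried its markers. B cell markers varied from 12.3 to 649 CPM between single libraries, and within the water + PBS group alone from 29.3 to 649 CPM. T cell markers were less variable, at 86.8 to 174 CPM in water + PBS, 42.5 to 104 in ZnSO4 + PBS, 82.6 to 108 in water + Dex and 46.0 to 46.9 in ZnSO4 + Dex mice. Fewer cells of a type and less RNA per cell cannot be told apart in such bulk tissue. Values below are normalised counts, that is counts scaled to the mean effective library size. A change was called at an adjusted p under 0.05 in edgeR's quasi-likelihood test with Benjamini-Hochberg adjustment over all genes tested, and errors of log2 fold changes are standard errors (SE) of that fit.

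Tnfsf10, which encodes TRAIL, a ligand that triggers apoptosis through death receptors, fell with Dex both in water and in zinc mice, and the 4 groups did not overlap in any pair. The gene (ENSMUSG00000039304) lies at chr3:27317028-27342427. Water + PBS mice had 1068, 1099.7 and 887.5 normalised counts, and ZnSO4 + PBS mice had 778, 738 and 673. Water + Dex mice had 357, 446 and 325, and ZnSO4 + Dex mice had 233, 228 and 176. Every Dex mouse was thus below every PBS mouse, and within each injection every zinc mouse was below every water mouse. Dex lowered Tnfsf10 to 36.9% of the control mean in water mice (log2 fold change -1.44 ± 0.14, adjusted p = 5.48e-05) and to 29.1% in zinc mice (log2 fold change -1.78 ± 0.14, adjusted p = 1.26e-05). Zinc lowered it to 56.5% in Dex mice (log2 fold change -0.82 ± 0.14, adjusted p = 0.00833). In PBS mice the zinc difference was -0.48 ± 0.13 on the log2 scale and missed the threshold at an adjusted p of 0.0682. With both agents Tnfsf10 was at 20.9% of the control mean (log2 fold change -2.26 ± 0.14, adjusted p = 1.61e-06). With the mean level of the T cell markers as a covariate, the value in zinc against water Dex mice was -0.72 at an adjusted p of 0.0904, and both Dex calls and the combined call were kept.

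Tnf itself was counted at low depth, with 121 reads summed over the 3 water + PBS mice and 13 over the 3 ZnSO4 + Dex mice. The gene (ENSMUSG00000024401) lies at chr17:35199381-35202007. Normalised counts were 53.5, 44.1 and 20.9 in water + PBS mice and 9.43, 26.5 and 8.34 in ZnSO4 + PBS mice. They were 7.80, 3.24 and 11.9 in water + Dex mice and 1.04, 3.84 and 8.54 in ZnSO4 + Dex mice. All 6 Dex mice lay below all 3 water + PBS mice, whereas the ZnSO4 + PBS mice overlapped both the controls and the Dex mice. Dex lowered Tnf to 19.3% of the control mean in water mice (log2 fold change -2.35 ± 0.61, adjusted p = 0.0318), and both agents together lowered it to 11.3% (log2 fold change -3.12 ± 0.66, adjusted p = 0.00561). The Dex difference in zinc mice was -1.71 ± 0.71 (adjusted p = 0.146), and the zinc differences were -1.41 ± 0.55 in PBS mice (adjusted p = 0.181) and -0.77 ± 0.78 in Dex mice (adjusted p = 0.646), none past the threshold. The Dex call in water mice was lost without water + PBS replicate 1 or 2, or without any of the 3 water + Dex mice, at adjusted p up to 0.121 without water + Dex replicate 2. The combined call was lost with the T cell marker covariate, at -2.41 and an adjusted p of 0.119.

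The lymphotoxin genes flank Tnf on chromosome 17, Lta with 1157 bases between the 2 genes and Ltb with 3060. None of the 12 other ligand genes tested, out of 15 listed, was called in the 4 comparisons of a single agent. With both agents against control, Ltb was at 168.8 ± 163 normalised counts in control mice and 20.8 ± 16.2 in ZnSO4 + Dex mice (SD, n = 3; log2 fold change -3.02 ± 0.98, adjusted p = 0.0448). The T cell gene Cd40lg was called as well (adjusted p = 0.0495), at only 3 to 14 reads per control library and 2 reads in each ZnSO4 + Dex library. These 2 calls were 16.7% of the 12 genes, below the 23.3% of all genes called in this comparison. The control range of Ltb, 47.7 to 354 normalised counts, was wide, the call was kept in 6 of 12 fits without a library, and with the T cell covariate its value was 0.59 with an adjusted p of 0.624.

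Tnfsf13b encodes BAFF, a survival factor for B cells. The gene (ENSMUSG00000031497) lies at chr8:10006467-10039072. Counts were 132, 231 and 192 in water + PBS mice and 125, 136 and 118 in ZnSO4 + PBS mice. They were 161, 217 and 194.5 in water + Dex mice and 136, 99.0 and 115 in ZnSO4 + Dex mice. Zinc mice sat at 99.0 to 136 normalised counts and water mice at 132 to 231, with an overlap of only the lowest control and the highest zinc mice, and Dex and PBS mice overlapped throughout. Of the single comparisons none passed in edgeR's test: the zinc difference was -0.55 ± 0.20 in PBS mice (adjusted p = 0.145) and -0.71 ± 0.20 in Dex mice (adjusted p = 0.0715), and the Dex differences were 0.04 ± 0.20 and -0.12 ± 0.20. DESeq2, run as an alternative test, called the zinc difference in Dex mice (adjusted p = 0.0215). ZnSO4 + Dex mice were at 63.1% of the control mean (log2 fold change -0.66 ± 0.20, adjusted p = 0.0317). That call was lost without water + PBS replicate 2, the library with the highest B cell and T cell markers (adjusted p = 0.122), without water + PBS replicate 3 or ZnSO4 + Dex replicate 2 or 3, with the mean B cell marker level as a covariate (adjusted p = 0.117) and in a fit of these 2 groups alone (adjusted p = 0.0856). Fitted with the T cell covariate, it was -0.24 at an adjusted p of 0.664.

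Among the receptors, Tnfrsf1a was the most abundant of the 9 genes and had the smallest called change of the 5 comparisons. It encodes TNFR1 (ENSMUSG00000030341, chr6:125349362-125362484). Counts were 1889, 1856 and 1814 in water + PBS mice, 1889, 1668 and 1751 in ZnSO4 + PBS mice, 1521, 1754 and 1758 in water + Dex mice and 1339, 1105 and 1647 in ZnSO4 + Dex mice. Both Dex groups stood wholly below the water + PBS mice, though the 4 ranges overlapped from each group to the next. ZnSO4 + Dex mice were at 73.6% of the control mean (log2 fold change -0.44 ± 0.12, adjusted p = 0.0221), and the other differences, -0.07 to -0.38 on the log2 scale, did not pass in edgeR's test. DESeq2 also called the Dex difference in zinc mice (adjusted p = 0.0357). The combined call was lost without water + PBS replicate 1, water + PBS replicate 2 or ZnSO4 + Dex replicate 1, at adjusted p of up to 0.0701, and in a fit of these 2 groups alone (adjusted p = 0.0732). In the fit with the T cell covariate the difference was -0.48 and the adjusted p 0.159.

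Tnfrsf1b, which encodes TNFR2 (ENSMUSG00000028599, chr4:145213463-145246870), had ranges that did not overlap between water and zinc mice and did overlap between PBS and Dex mice. Its counts were 289.9, 411 and 288 in water + PBS and 365, 307 and 350.1 in water + Dex mice. They were 239, 251 and 218 in ZnSO4 + PBS and 281, 277 and 243 in ZnSO4 + Dex mice. All 6 zinc mice, at 218 to 281, lay below all 6 water mice, at 288 to 411. No single comparison passed the threshold: zinc gave -0.48 ± 0.14 in PBS mice (adjusted p = 0.0765) and -0.35 ± 0.14 in Dex mice (adjusted p = 0.198), Dex gave 0.05 ± 0.14 and 0.18 ± 0.14, and both agents together gave -0.30 ± 0.14 (adjusted p = 0.142). The T cell covariate changed the zinc values to -0.29 in PBS mice (adjusted p = 0.301) and -0.07 in Dex mice (adjusted p = 0.872).

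Tnfrsf10b, which encodes the mouse TRAIL receptor (ENSMUSG00000022074, chr14:69767472-69784411), had ranges that did not overlap between PBS and Dex mice. Counts were 51.6, 60.2 and 50.4 in water + PBS and 43.4, 55.8 and 56.5 in ZnSO4 + PBS mice. Dex mice had 23.4, 29.2 and 23.8 on water and 23.9, 29.8 and 36.3 on zinc. The 6 PBS mice, at 43.4 to 60.2, lay above the 6 Dex mice, at 23.4 to 36.3, and the zinc and water mice overlapped within each injection. Dex lowered Tnfrsf10b to 47.1% in water mice (log2 fold change -1.08 ± 0.20, adjusted p = 0.00471) and to 57.8% in zinc mice (log2 fold change -0.79 ± 0.19, adjusted p = 0.0188). ZnSO4 + Dex mice were at 55.5% of the control mean (adjusted p = 0.00903). The zinc differences were -0.06 ± 0.19 and 0.23 ± 0.21, with the second above 0. The Dex call in zinc mice was lost without ZnSO4 + PBS replicate 2 or 3 or ZnSO4 + Dex replicate 1 or 2, at adjusted p up to 0.0761, in a fit of these 2 groups alone at 0.0697, and with the T cell covariate at 0.0692. That covariate also ended the combined call, at -0.65 and an adjusted p of 0.212.

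Fas, the receptor of FAS ligand (ENSMUSG00000024778, chr19:34290666-34327772), was lowest in mice given both agents. Counts were 259.7, 298 and 199 in water + PBS, 209, 238 and 210.3 in ZnSO4 + PBS, 189.5, 158 and 174 in water + Dex and 116, 97.0 and 135 in ZnSO4 + Dex mice. Every ZnSO4 + Dex mouse was below every other mouse. Dex lowered Fas to 52.9% in zinc mice (log2 fold change -0.92 ± 0.16, adjusted p = 0.00276), and both agents lowered it to 46.0% of the control mean (log2 fold change -1.12 ± 0.16, adjusted p = 5.40e-04). In water mice the Dex difference was -0.54 ± 0.16 (adjusted p = 0.0575), and zinc gave -0.20 ± 0.16 in PBS mice (adjusted p = 0.531) and -0.58 ± 0.16 in Dex mice (adjusted p = 0.0716). DESeq2 called the Dex difference in water mice (adjusted p = 0.0364) and the zinc difference in Dex mice (adjusted p = 0.0335) as well. The 2 Fas calls of edgeR's test were kept without each library in turn and with the T cell covariate.

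Cflar encodes cFLIP, the inhibitor that competes with caspase-8 at death receptors (ENSMUSG00000026031, chr1:58711508-58758884). Its counts were 1202, 1335.5 and 1298 in water + PBS, 1223, 1199 and 1148 in ZnSO4 + PBS, 1405, 1248.5 and 1516 in water + Dex and 1441, 996 and 1335 in ZnSO4 + Dex mice. The groups overlapped in every comparison. Its log2 differences ran from -0.14 ± 0.12 for zinc in Dex mice to 0.12 ± 0.12 for Dex in water mice, with adjusted p of 0.569 or more. A difference of this size was within the spread between mice, and the test does not show that the levels were equal.

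Tnfaip8l3 encodes a lipid-transfer protein of the TNFAIP8 family and was called with zinc alone, as none of the other 8 genes was in edgeR's test. DESeq2 also called Tnfsf10 (adjusted p = 0.0256) and Tnfrsf1b (adjusted p = 0.0447) there. The gene (ENSMUSG00000074345) lies at chr9:54023405-54068388. Water + PBS mice had 374.5, 348 and 239 normalised counts, above all other mice. ZnSO4 + PBS mice had 127, 155 and 154, water + Dex mice 137, 165 and 207, and ZnSO4 + Dex mice 70.5, 126 and 72.6. Zinc lowered it to 45.3% in PBS mice (log2 fold change -1.14 ± 0.24, adjusted p = 0.0223), and Dex lowered it to 53.0% in water mice (log2 fold change -0.92 ± 0.24, adjusted p = 0.0323). The second agent gave -0.92 ± 0.25 for zinc in Dex mice (adjusted p = 0.0631) and -0.69 ± 0.25 for Dex in zinc mice (adjusted p = 0.0940), which missed the threshold in edgeR's test. DESeq2 called both, at adjusted p of 0.00742 and 0.0430. Both agents together lowered it to 28% of the control mean (log2 fold change -1.83 ± 0.25, adjusted p = 3.29e-04). The zinc call in PBS mice was lost without water + PBS replicate 1 or 2 or ZnSO4 + PBS replicate 1 or 3, at adjusted p up to 0.0903. The Dex call in water mice was lost without the same 2 controls or without water + Dex replicate 1 or 2, at up to 0.12. The zinc value in PBS mice was -1.16 with the T cell covariate, at an adjusted p of 0.0587.

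**Figure D1:**
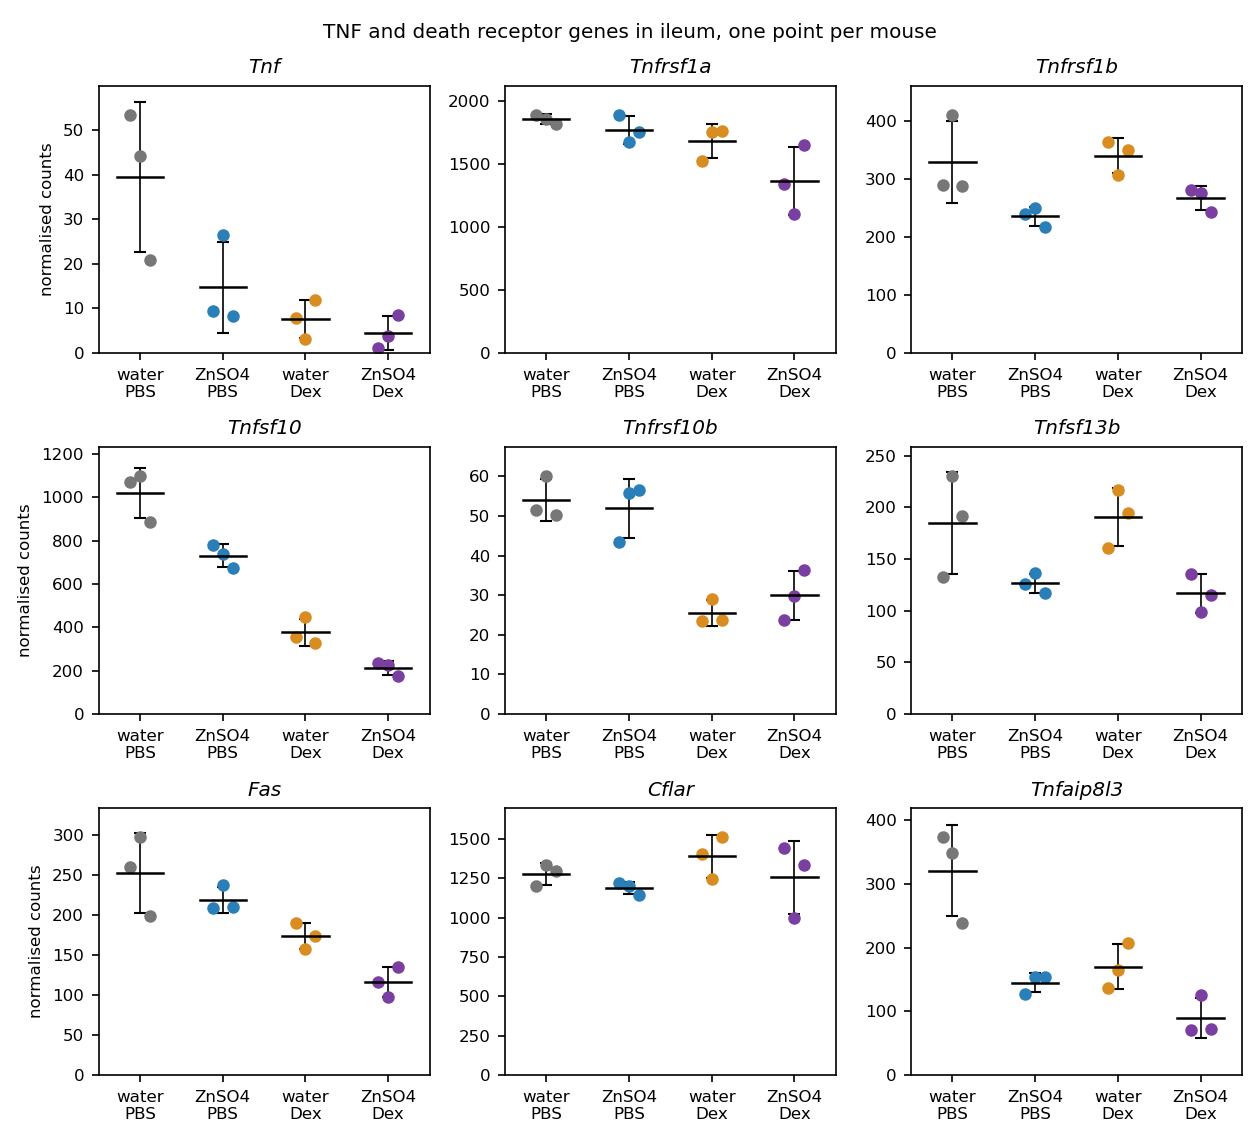
Normalised counts (vertical axes, from 0) of the 9 genes in the 4 groups, with 1 point per mouse, a line at the mean of 3 mice and bars for the SD. Tnfsf10 stepped down over the 4 groups with no overlap between neighbours, Tnfrsf10b split by injection and Tnfrsf1b by drinking water, and Cflar overlapped in every comparison.

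To compare levels between genes, CPM values were divided by exonic length. In water + PBS mice Tnfrsf1a stood highest, at 62.9 ± 1.28 CPM per kb (SD, n = 3), followed by Tnfsf10 at 17 ± 1.91 and Fas at 10.8 ± 2.14 CPM per kb. Cflar was at 8.87 ± 0.476, Tnfrsf1b at 7.59 ± 1.63 and Tnfaip8l3 at 6.15 ± 1.37 CPM per kb, and from Fas to Tnfaip8l3 each gene differed from the next by less than the larger of their SDs. Tnfsf13b at 2.37 ± 0.635, Tnf at 2.12 ± 0.900 and Tnfrsf10b at 0.871 ± 0.0866 CPM per kb were the lowest. By RNA per exonic length both TNF receptor genes were thus above Tnf, Tnfrsf1a by far, whereas Tnfsf10 was far above Tnfrsf10b. Protein levels were not part of these data. In ZnSO4 + Dex mice Tnfsf10 was at 3.55 ± 0.525 CPM per kb, below Cflar at 8.72 ± 1.61, Tnfrsf1b at 6.15 ± 0.472 and Fas at 4.94 ± 0.8. Exonic length was the union of all annotated exons, which for Cflar is 12.7 kb and lowers its value.

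**Figure D2:**
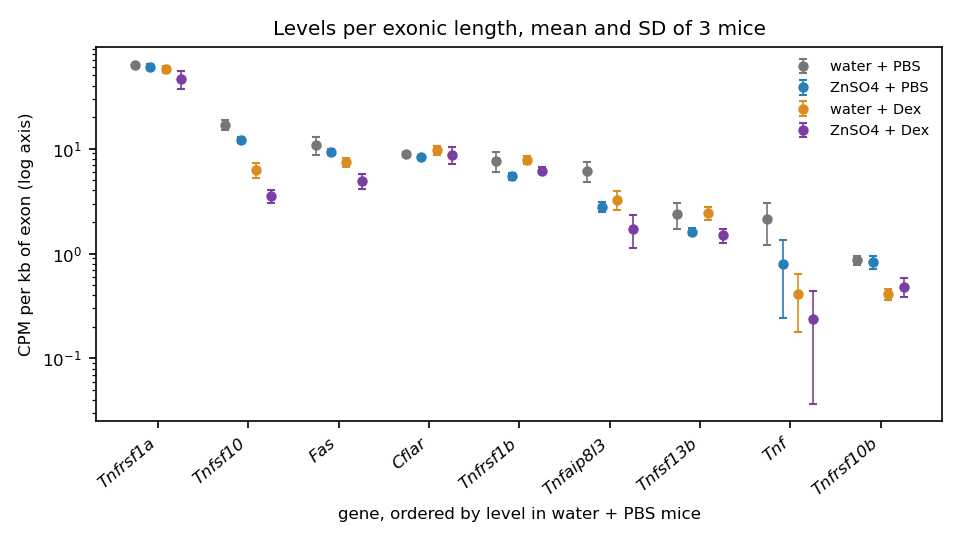
CPM per kb of exon (log axis) of the 9 genes, ordered by their mean in water + PBS mice, with 1 point per group at the mean of 3 mice and bars for the SD. Tnfrsf1a was the highest in all 4 groups, at 46.3 CPM per kb or more, and Tnfsf10 fell from the second place at 17 to 3.55 CPM per kb in ZnSO4 + Dex mice.

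Set side by side, zinc in PBS mice called 1 of the 9 genes, Tnfaip8l3, where 2.54% of all tested genes were called lower and 4.66% in either direction. All 9 log2 fold changes were below 0, with a median of -0.48 against -0.01 for all genes. Zinc in Dex mice called 1 of 9, Tnfsf10, against 2.54% lower and 4.37% in either direction, with a median of -0.58 against 0.01. Dex in water mice called 4 of 9, all lower (Tnfsf10, Tnfrsf10b, Tnf and Tnfaip8l3), where 4.51% of all genes were called lower and 9.93% in either direction. Dex in zinc mice called 3 of 9, all lower (Tnfsf10, Fas and Tnfrsf10b), against 7.08% lower and 13.7% in either direction. Both agents against control called 7 of 9, all lower, with Tnfrsf1b and Cflar as the exceptions, against 11.9% lower and 23.3% in either direction. None of the 9 genes was called higher in any comparison. The comparisons share groups, and the combined one shares its control mice with 2 of the others.

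**Figure D3:**
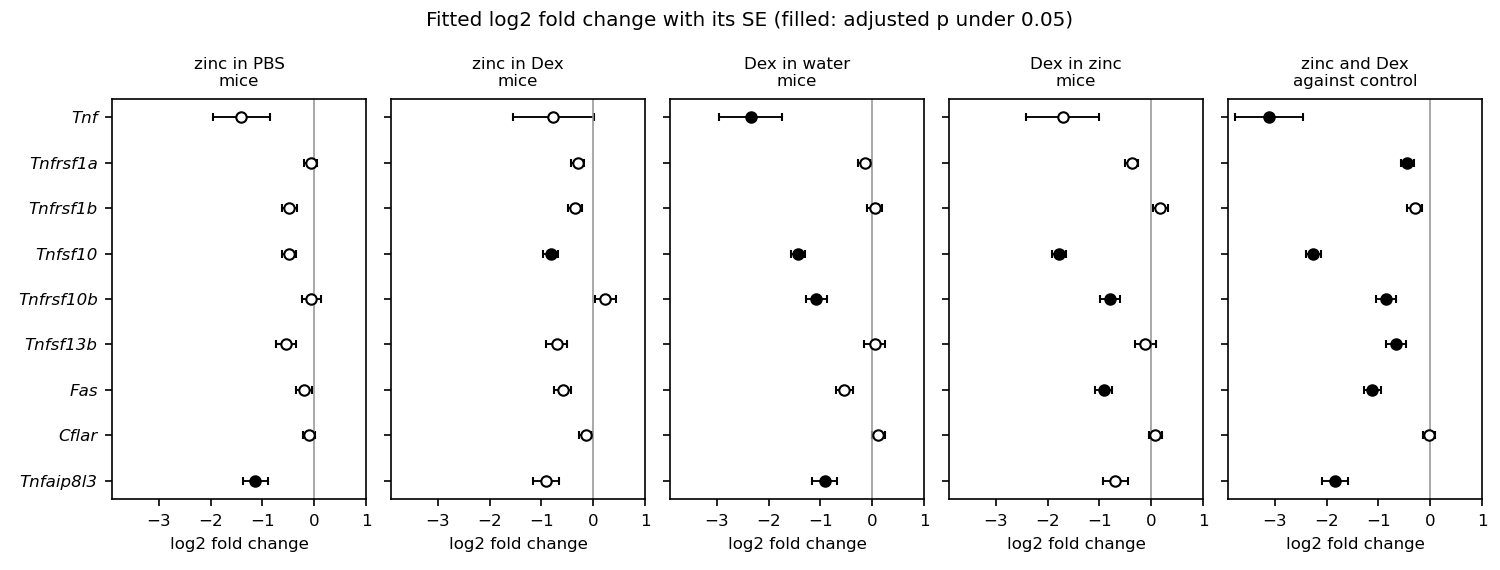
Fitted log2 fold change (horizontal axes) of the 9 genes with its SE in the 5 comparisons, filled where the adjusted p was under 0.05. Filled points lie below 0 in every panel, from 1 gene in either zinc comparison to 7 genes for both agents against control, and Cflar lies near 0 in all 5.

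Whether Dex acted differently in zinc and in water mice was tested as an interaction. None of the 9 genes was called by edgeR or by DESeq2, and none had an unadjusted p under 0.05, where 4.98% of all tested genes had one and 0% of them were called. The interaction values ran from -0.38 ± 0.23 for Fas and -0.34 ± 0.20 for Tnfsf10 to 0.64 ± 0.999 for Tnf on the log2 scale. In addition, 2 contrasts that average the effect of each agent over the other, and so use all 12 mice, were added after seeing the data. Zinc averaged over PBS and Dex mice lowered 5 of 9 genes, where 6.52% of all genes were called lower: Tnfsf10 (-0.65 ± 0.10, adjusted p = 0.00144), Tnfaip8l3 (-1.03 ± 0.17, adjusted p = 0.00283), Tnfsf13b (-0.63 ± 0.14, adjusted p = 0.0131), Tnfrsf1b (-0.42 ± 0.10, adjusted p = 0.0185) and Fas (-0.39 ± 0.11, adjusted p = 0.0434). The Fas call in this contrast was kept in only 3 of the 12 fits without a library. Dex averaged over water and zinc mice also lowered 5 of 9, where 11.2% of all genes were called lower: Tnfsf10 (-1.61 ± 0.10, adjusted p = 6.25e-07), Tnfrsf10b (-0.94 ± 0.14, adjusted p = 4.86e-04), Fas (-0.73 ± 0.11, adjusted p = 7.01e-04), Tnfaip8l3 (-0.80 ± 0.17, adjusted p = 0.00571) and Tnf (-2.03 ± 0.47, adjusted p = 0.00856). Tnfrsf1b and Tnfsf13b were therefore called with zinc and had Dex values of 0.11 ± 0.10 and -0.04 ± 0.14, while Tnfrsf10b and Tnf were called with Dex and had zinc values of 0.09 ± 0.14 and -1.09 ± 0.48.

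Immune cell markers moved with the treatments as well. Of the 8 T cell markers, 1 was called lower with zinc in PBS mice and 3 with zinc in Dex mice, where 2.54% of all genes were called lower in either case, and 6 with both agents against control, where 11.9% were. With Dex none was called in water or in zinc mice, but their median log2 fold change was -0.33 and -0.90. In zinc mice 5 of 8 had an unadjusted p under 0.05 with Dex, where 26.3% of all genes had one. Dex averaged over both drinking waters called 2 lower (median -0.66, against 11.2% of all genes). All 8 B cell markers had log2 fold changes below 0 in each of the 5 comparisons, with medians of -0.53 and -1.70 for zinc in PBS and in Dex mice, -1.62 and -2.94 for Dex in water and in zinc mice and -3.45 for both agents. None of the 8 was called in edgeR's test, and 0, 0, 0, 0 and 1 had an unadjusted p under 0.05. Of all genes 19.8%, 19.1%, 22.7%, 26.3% and 36% had one, in the same order. Of the 5 plasma cell markers 3 (Xbp1, Mzb1 and Sdc1) were lower with both agents, where 11.9% of all genes were called lower. Their 5 markers summed to 2608.5 to 2734.5 CPM in water + PBS and 1650 to 2229 CPM in ZnSO4 + Dex mice. Both neutrophil markers tested, out of 5 listed, were lower there too. The neutrophil markers were near the floor, at 2.76 to 8.82 CPM summed in water + PBS and 1.55 to 1.97 CPM in ZnSO4 + Dex mice. Macrophage and dendritic cell markers summed to 246 to 317 CPM in water + PBS, 214 to 239 in ZnSO4 + PBS, 259 to 306.5 in water + Dex and 249.6 to 282 in ZnSO4 + Dex mice. None of these 8 was called in either zinc comparison or with Dex in water mice. Dex in zinc mice called 3 of the 8, C1qa and C1qb higher and Cx3cr1 lower. In that comparison 13.7% of all genes were called in either direction. Both agents called Cx3cr1 lower, or 12.5% of the 8, below the 23.3% of all genes called there. With the T cell covariate, added after seeing the data, zinc averaged over both injections called 1 of the 9 genes in place of 5, Tnfaip8l3 (-1.05, adjusted p = 0.0398), with Tnfsf10 at -0.57 (adjusted p = 0.0506), Tnfsf13b at -0.36 (adjusted p = 0.309), Tnfrsf1b at -0.18 (adjusted p = 0.449) and Fas at -0.20 (adjusted p = 0.504). Dex averaged over both drinking waters called the same 5 genes with that covariate. The part of the plasma cell and neutrophil markers was not tested. The T cell marker level went largely with zinc. ZnSO4 + PBS mice had 61.3, 104 and 42.5 CPM and ZnSO4 + Dex mice 46.0 to 46.9, against 82.6 or more in every water mouse. The marker level and zinc can thus hardly be told apart, least of all in ZnSO4 + Dex mice. A call lost with the covariate may reflect lost precision, which was not tested. With both agents 3 of the 7 calls were kept with the covariate. Among the calls lost, the value of Tnfrsf1a went from -0.44 (adjusted p = 0.0221) to -0.48 (adjusted p = 0.159). The values of the others went from -0.66 to -0.24 for Tnfsf13b, -3.12 to -2.41 for Tnf and -0.85 to -0.65 for Tnfrsf10b.

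**Figure D4:**
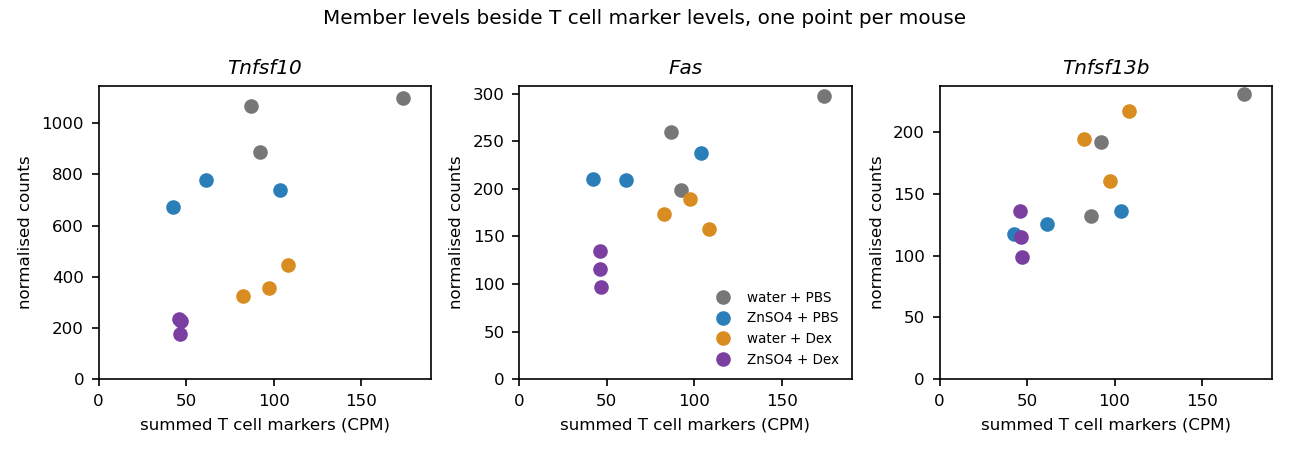
Normalised counts of Tnfsf10, Fas and Tnfsf13b (vertical axes, from 0) against the summed level of 8 T cell markers in CPM (horizontal axes), with 1 point per mouse coloured by group. The ZnSO4 + Dex mice cluster at 46.0 to 46.9 CPM, and the water + Dex mice, at 82.6 to 108 CPM, had Tnfsf10 at 325 to 446 against 887.5 to 1099.7 normalised counts in water + PBS mice.

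The genes whose pattern over the 12 libraries was most like that of each called member were found by the root mean square (RMS) difference of centred log2 CPM among 14971 genes. For Tnf, whose own RMS around its mean was 1.21, the nearest were Socs3 at 0.512, Socs1 at 0.518 and Bcl3 at 0.571, feedback inhibitors of cytokine signalling and an IkB family member. For Tnfsf10, with an own RMS of 0.885, they were Cxcr6 at 0.263, Sh3tc1 at 0.299 and Irf8 at 0.300. For Tnfaip8l3, with an own RMS of 0.711, they were the interferon-inducible GTPase gene Iigp1 at 0.223, the bacterial lipoprotein receptor gene Tlr2 at 0.271 and Lilr4b at 0.292. Irak2 at 0.137, Rbm12 at 0.154 and Helz2 at 0.165 lay nearest to Fas, which had an own RMS of 0.451. Nr2f2 at 0.125, 2810410L24Rik at 0.144 and Scn2b at 0.171 lay nearest to Tnfrsf10b (own RMS 0.485). The class I gene H2-T23 at 0.158, Gas2l3 at 0.172 and Zfp143 at 0.173 lay nearest to Tnfsf13b (own RMS 0.373), and Plxnb2, Myo18a and Ilvbl at 0.0696 to 0.0717 nearest to Tnfrsf1a (own RMS 0.221). These are likenesses over shared libraries and carry no test.

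The rest of the pathway was read from 6 lists of 91 other genes, of which 87 were tested. Zinc in PBS mice called 4 of the 87, all lower, at 4.60% against the 4.66% of all genes. Zc3h12a, which encodes the ribonuclease Regnase-1 that degrades cytokine mRNAs, fell by the most (-1.20 ± 0.18, adjusted p = 0.00393). The calls also included Apaf1, the apoptosome scaffold (-0.74 ± 0.15, adjusted p = 0.0171), and Cycs, which encodes cytochrome c (-0.51 ± 0.10, adjusted p = 0.0191). Zinc in Dex mice called 8 of the 87, or 9.20% against 4.37%, again all lower. They again included Apaf1 at -0.92 ± 0.15 (adjusted p = 0.00547), Cycs at -0.60 ± 0.10 (adjusted p = 0.00879) and Zc3h12a at -0.84 ± 0.18 (adjusted p = 0.0223). The sheddase gene Adam10 (-0.38 ± 0.08, adjusted p = 0.0196), the deubiquitinase gene Cyld (-0.41 ± 0.09, adjusted p = 0.0208) and Tnfaip8l2 (-0.78 ± 0.19, adjusted p = 0.0411) were among the 8 as well. With the T cell covariate 4 of the 87 were called in this comparison, 3 of them among the 8, and Cyld was at -0.23 (adjusted p = 0.253).

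Dex changed more of the pathway and in both directions. In water mice 15 of the 87 genes were called, 6 higher and 9 lower, or 17.2% against 9.93% of all genes, and in zinc mice 20, 8 higher and 12 lower, or 23.0% against 13.7%. Among the 18 apoptosis genes, which comprise caspases, the BCL2 family and the apoptosome with its activators, 3 were higher and 2 lower in water mice, and 4 higher and 2 lower in zinc mice, or 27.8% and 33.3% of the list. Pmaip1, which encodes the pro-apoptotic protein Noxa, rose from 641 ± 32.1 to 3658 ± 525 normalised counts in water mice (SD, n = 3) and by 3.23 ± 0.31 on the log2 scale in zinc mice (adjusted p = 4.77e-05). Bcl2l1, which encodes the anti-apoptotic BCL-XL, rose too, by 0.77 ± 0.12 in water mice (adjusted p = 0.00131) and 0.92 ± 0.12 in zinc mice (adjusted p = 2.90e-04). Bbc3, which encodes the pro-apoptotic PUMA, fell by 0.74 ± 0.21 on the log2 scale in water mice (adjusted p = 0.0416) and by 1.07 ± 0.20 in zinc mice (adjusted p = 0.00373). In water mice that Bbc3 call was kept in only 2 of the 12 fits without a library. The initiator caspase gene Casp9 fell by 0.38 ± 0.08 in water mice (adjusted p = 0.0141) and by 0.58 ± 0.08 in zinc mice (adjusted p = 7.54e-04).

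Of the 23 other receptor genes tested, 1 was higher and 2 were lower with Dex, both in water and in zinc mice. That is 13.0% of the list, against 9.93% and 13.7% of all genes, and so near the background. Tnfrsf21, which encodes death receptor DR6, rose by 1.28 ± 0.18 on the log2 scale with Dex in water mice (adjusted p = 8.41e-04) and by 1.24 ± 0.18 in zinc mice (adjusted p = 6.88e-04). Tnfrsf11b, which encodes osteoprotegerin, a decoy receptor for RANK ligand that also binds TRAIL, fell by 1.46 ± 0.19 in water mice (adjusted p = 4.12e-04) and by 1.35 ± 0.18 in zinc mice (adjusted p = 4.49e-04). Tnfrsf11a, which encodes RANK, fell by 0.67 ± 0.13 (adjusted p = 0.00576) and by 1.16 ± 0.13 (adjusted p = 1.26e-04). In the TNFAIP8 family, Tnfaip8l1 rose with Dex (1.51 ± 0.11, adjusted p = 6.94e-06, in water mice; 1.15 ± 0.11, adjusted p = 3.56e-05, in zinc mice), and Tnfaip8l2 fell (-0.76 ± 0.18, adjusted p = 0.0217; -1.20 ± 0.19, adjusted p = 0.00127). Tnfaip8l3, described above, was called lower in water mice, so this family moved in both directions. Rnf31, which encodes HOIP of the linear ubiquitin ligase, fell by 0.62 ± 0.10 in water mice (adjusted p = 0.00164) and by 0.56 ± 0.10 in zinc mice (adjusted p = 0.00240).

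Of the 12 genes that control TNF by shedding or through its mRNA, 1 was higher and 3 were lower with Dex in water mice. In zinc mice 2 were higher and 3 lower with Dex. These calls were 33.3% and 41.7% of the list, against 9.93% and 13.7% of all genes. Zfp36l1, which encodes an mRNA decay factor, fell by 0.88 ± 0.14 in water mice (adjusted p = 0.00164), and Zc3h12a by 0.98 ± 0.18 (adjusted p = 0.00384). Rhbdf2, which encodes iRhom2, a partner of the TNF-releasing protease ADAM17, fell by 0.53 ± 0.12 in water mice (adjusted p = 0.0161), while its relative Rhbdf1 rose by 0.57 ± 0.11 in zinc mice (adjusted p = 0.00527).

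With both agents against control 36 of the 87 genes were called, 8 higher and 28 lower, or 41.4% against 23.3% of all genes. The median of the list was -0.33 against -0.01 for all genes. Of the 19 signalling genes close to the receptors (adaptors, a kinase, ubiquitin ligases, deubiquitinases and the caspase-8 complex) 8 were lower and none higher, led by Rnf31 (-0.85 ± 0.10, adjusted p = 1.06e-04) and Cyld (-0.59 ± 0.09, adjusted p = 5.11e-04). Of the 18 apoptosis genes 6 were lower and 4 higher, with Apaf1 at -1.17 ± 0.15 (adjusted p = 2.04e-04) and Pmaip1 at 2.91 ± 0.31 (adjusted p = 5.97e-05). Zc3h12a was at -1.82 ± 0.18 (adjusted p = 3.82e-05), from 1566 ± 182 normalised counts in control mice to 443 ± 125 in ZnSO4 + Dex mice (SD, n = 3). The fit with the T cell covariate called 19 of the 87, 17 of them among the 36.

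**Figure D5:**
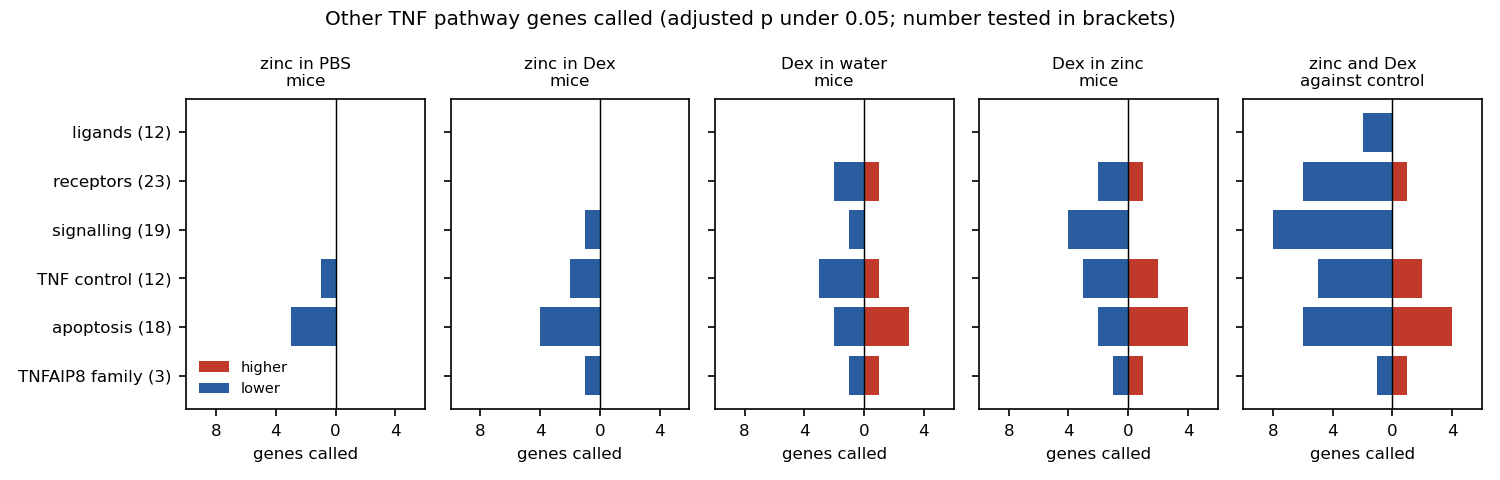
Number of genes called higher (right of 0) and lower (left of 0) in each of the 6 pathway lists (rows, number tested in brackets) for the 5 comparisons. The zinc panels hold lower calls only, 4 in PBS and 8 in Dex mice, and the Dex panels hold calls on both sides, 6 higher and 9 lower in water mice.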

How the data were processed

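Ileum RNA of 12 mice was sequenced single-end from stranded libraries. Per the submitters' processing notes and the study's methods, reads were trimmed with Trimmomatic, mapped to mm10 with HISAT2 2.0.4 and counted per gene with featureCounts, leaving out multimapping reads; the annotation release and strand setting are not given in the sources used here. The authors deposited raw counts for 54838 genes. Symbols, exonic lengths and positions came from GENCODE vM21 (GRCm38), which matched 54723 identifiers. No exon of the 9 genes overlapped another gene.

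Counts were filtered with filterByExpr (minimum count 10), normalised by TMM and fitted in 1 model of 4 groups with edgeR 4.0.16 (R 4.3.3), without covariates. The common biological coefficient of variation was 0.191. The procedure was tested on simulated data. Alternatives were DESeq2 1.42.0, other normalisation and filters, a replicate block, the compared groups alone, a fold cut-off, a marker covariate and each library left out; the T cell covariate and averaged contrasts were added after seeing the data. With 3 mice a group an exact permutation test cannot go below 0.1, so none was used. No libraries agreed within sampling noise.

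The members and gene lists were chosen with earlier results of these data known. All members are named; of each pathway list up to 4 genes with the lowest adjusted p under 0.05 per comparison; and for each called member the 3 genes of nearest pattern with a mean CPM of at least 1. Some genes that this rule names are not reported here.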

Additional observations from a re-analysis of the deposited data

How the results depend on the processing

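No pairing of the mice by replicate number was seen. Same-numbered libraries had a median correlation of deviations of -0.0557 over 18 pairs (-0.36 to 0.46), against 0.0225 over 36 other pairs (-0.47 to 0.44). These ranges are wide and overlap, so they cannot show that pairing was absent. With the replicate block the members called were 2 for zinc in PBS mice in place of 1 (Tnfsf10 added, adjusted p = 0.0211), 3 for Dex in water mice in place of 4 and 6 for both agents in place of 7; Tnf with Dex in water mice was then at an adjusted p of 0.0654 and Tnfsf13b with both agents at 0.0504. DESeq2 called 3 members for zinc in PBS mice, 4 for zinc in Dex mice in place of 1 and 5 for Dex in zinc mice in place of 3. Keeping all genes with at least 1 count gave 2 for zinc in Dex mice, as did the B cell covariate. The log2 cut-off of 0.8 left 1 member for averaged zinc in place of 5. With the T cell covariate the members called were 0 for zinc in PBS mice, 0 for zinc in Dex mice, 3 for both agents and 1 for averaged zinc. Leaving out 1 library gave 0 to 1 members for zinc in PBS mice, 2 to 5 for Dex in water mice, 1 to 2 for zinc in Dex mice, 2 to 4 for Dex in zinc mice, 5 to 7 for both agents, 4 to 6 for averaged zinc and 5 to 6 for averaged Dex; the interaction called 0 in all settings run.

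Of the pathway list, fitting only the groups compared called 2 for zinc in PBS mice in place of 4 and 5 for zinc in Dex mice in place of 8. The log2 cut-off left 1 for zinc in PBS mice, 7 for Dex in water mice in place of 15, 3 for zinc in Dex mice, 11 for Dex in zinc mice in place of 20 and 17 for both agents in place of 36, and the T cell covariate gave 4 for zinc in Dex mice, 3 of them among the 8, and 19 for both agents, 17 of them among the 36. Leaving out 1 library gave 1 to 7 for zinc in PBS mice, 10 to 17 for Dex in water mice, 4 to 9 for zinc in Dex mice, 14 to 20 for Dex in zinc mice and 24 to 39 for both agents.

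Among the 9 genes, signs turned for differences that were not called, and of the named pathway genes for Ltb with both agents, at 0.59 with the T cell covariate. With the B cell covariate they turned for Tnfsf13b under averaged Dex (0.0518) and Cflar with both agents (0.0110). With the T cell covariate they turned for Tnfrsf1b with both agents (0.0686), Tnfrsf10b with zinc in PBS mice (0.0478), Tnfsf13b with Dex in zinc mice (0.0846) and averaged Dex (0.12), and Cflar with both agents (0.0276). Without 1 library the log2 values ran from -0.0420 to 0.24 for Tnfrsf1b and -0.15 to 0.23 for Tnfsf13b with Dex in water mice, -0.14 to 0.0574 for Tnfsf13b with averaged Dex, -0.12 to 0.0558 for Tnfrsf10b with zinc in PBS mice, -0.0307 to 0.22 for Cflar with Dex in zinc mice and -0.13 to 0.12 for Cflar with both agents. The interaction ran from -0.17 to 1.37 for Tnf, -0.0596 to 0.22 for Tnfrsf1b, -0.35 to 0.0163 for Tnfsf13b, -0.15 to 0.10 for Cflar and -0.11 to 0.39 for Tnfaip8l3. The cause of these changes was not tested. Depth limits Tnf most, with 1 to 8 reads in each ZnSO4 + Dex library. For zinc in Dex mice Tnf had no adjusted p from DESeq2, and it was not tested in the fit of those groups alone.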
